A study of Mus musculus with 20 samples.

Results

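Genes of mitosis and cytokinesis were followed in CFU-E, progenitor cells of the marrow that are committed to the red lineage and divide several times before they mature. A set of 35 genes was listed by name, and all 35 reached a value of 1 in 5 or more libraries out of 20. They were read within a table of 37748 gene entries, of which 10890 passed the same minimum and were tested.

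Control mice carried Mx1-Cre alone, and mutant mice, called P95H here, carried Mx1-Cre together with a heterozygous Srsf2 P95H allele, which changes a splicing factor. Mx1-Cre places the recombinase under the interferon-responsive Mx1 promoter, which is active in many cell types besides blood cells, and the controls carry it as well. Mice of each genotype received PBS or 30 mg/kg phenylhydrazine (PHZ), an agent that lyses red cells, given subcutaneously on day 0 and again on day 1, with the sort of marrow CFU-E on day 4. The 4 groups held 5 libraries each, and the label of every library bears an animal number of its own. Age, sex, and when and how Mx1-Cre was induced are not given in the sources used here, and whether the P95H allele was recombined in the sorted cells was not examined. P-values measure the spread between these libraries.

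As background, a cell enters mitosis when cyclin B and cyclin A activate Cdk1, and Plk1 and the Aurora kinases then drive spindle assembly. Kinetochores tie chromosomes to the spindle, and the spindle checkpoint holds back the anaphase-promoting complex until all are attached. Cdc20 then starts the destruction of cyclin B and of the inhibitor of separase, after which the central spindle places the cleavage furrow. Red cell progenitors rely on this machinery heavily, and inherited mutations of KIF23 and RACGAP1 are known in dyserythropoietic anaemias with multinucleated erythroblasts.

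Many genes of this kind share promoter elements, and 8 promoters are printed, those of the cyclin pair Ccnb1 and Ccnb2, of the partners Kif23 and Racgap1, and of Cdc20, Hmmr, Cenpe and Ndc80, whose values are described below. These 8 were chosen after the values were seen. The elements searched were the cell cycle genes homology region (CHR), as the letters TTTGAA or TTCGAA, and the CCAAT box, as CCAAT, each on both strands. Capitals mark the matches, and a CCAAT box on the opposite strand reads ATTGG, as TTTGAA reads TTCAAA. No CHR match overlaps a CCAAT match in the stretches shown. Each stretch is 216 bases long, begins 180 bases before the annotated transcript start, runs 5′ to 3′ on the gene's strand (plus for Cenpe and minus for the other 7) and comes from RefSeq on GRCm38.p6.
Cdc20 (chr4:118437308-118437523): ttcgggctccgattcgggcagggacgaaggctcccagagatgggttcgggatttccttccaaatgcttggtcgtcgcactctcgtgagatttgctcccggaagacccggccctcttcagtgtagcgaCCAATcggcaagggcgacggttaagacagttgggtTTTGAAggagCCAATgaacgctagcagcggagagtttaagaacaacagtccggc
Hmmr (chr11:40733402-40733617): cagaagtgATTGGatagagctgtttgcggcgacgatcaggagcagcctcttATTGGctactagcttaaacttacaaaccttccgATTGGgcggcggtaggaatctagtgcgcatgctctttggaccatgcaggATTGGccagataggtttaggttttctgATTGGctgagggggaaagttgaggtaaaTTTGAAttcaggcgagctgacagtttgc
Ccnb1 (chr13:100786451-100786666): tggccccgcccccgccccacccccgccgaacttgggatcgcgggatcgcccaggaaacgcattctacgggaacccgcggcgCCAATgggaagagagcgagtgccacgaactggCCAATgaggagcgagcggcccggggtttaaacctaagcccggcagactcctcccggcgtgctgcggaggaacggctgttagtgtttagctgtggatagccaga
Ccnb2 (chr9:70421519-70421734): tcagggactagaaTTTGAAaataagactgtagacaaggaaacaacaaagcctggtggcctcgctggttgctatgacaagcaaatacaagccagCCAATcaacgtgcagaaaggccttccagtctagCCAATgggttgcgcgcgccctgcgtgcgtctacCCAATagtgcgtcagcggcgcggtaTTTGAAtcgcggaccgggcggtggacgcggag
Kif23 (chr9:61946764-61946979): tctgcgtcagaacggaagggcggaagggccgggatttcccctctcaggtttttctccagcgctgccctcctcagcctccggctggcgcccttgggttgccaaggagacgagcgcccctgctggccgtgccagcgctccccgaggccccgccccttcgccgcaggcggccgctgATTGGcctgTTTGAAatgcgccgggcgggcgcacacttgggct
Racgap1 (chr15:99651621-99651836): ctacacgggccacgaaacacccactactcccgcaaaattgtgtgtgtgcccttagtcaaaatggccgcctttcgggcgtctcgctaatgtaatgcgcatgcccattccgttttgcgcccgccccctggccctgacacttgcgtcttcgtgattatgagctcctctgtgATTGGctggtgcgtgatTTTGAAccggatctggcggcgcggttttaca
Cenpe (chr3:135212383-135212598): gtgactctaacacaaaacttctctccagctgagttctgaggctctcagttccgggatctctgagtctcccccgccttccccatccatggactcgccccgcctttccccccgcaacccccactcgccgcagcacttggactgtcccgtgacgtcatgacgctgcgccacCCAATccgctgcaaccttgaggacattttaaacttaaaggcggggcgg
Ndc80 (chr17:71526822-71527037): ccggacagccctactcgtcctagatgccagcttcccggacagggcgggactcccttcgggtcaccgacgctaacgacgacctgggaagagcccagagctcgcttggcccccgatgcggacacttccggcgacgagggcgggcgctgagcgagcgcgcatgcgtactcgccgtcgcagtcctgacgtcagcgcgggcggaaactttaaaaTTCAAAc

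Promoter windows of 300 bases, from 250 before to 50 after the start, were matched for 30 of the 35 members. Incenp, Aurkb, Tpx2, Ccna2 and Kif20a had no entry. CHR letters stood in 24 of the 30 windows (80%), against 21.7% of 27025 genes with a window and 16.7% of the 8261 tested genes with a window. CCAAT letters stood in 23 (76.7%), against 41.1% of all those genes and 44.3% of the tested ones. At least 2 CCAAT boxes stood in 15 (50%), against 13.3% and 18.1%. Both elements were present in 21 members (70%), against 9.65% of all genes with a window and 8.52% of the tested ones. Ccnb1 holds 2 CCAAT boxes and none of the CHR letters searched in its window, whereas Ccnb2 holds 3 CCAAT boxes and 2 CHR matches. Whether matches go with the direction of change after PHZ was not tested. Hmmr holds 5 CCAAT boxes with a CHR match 8 bases after the start, and Kif23 and Racgap1 hold 1 of each within 15 bases of the start. Cenpe holds 1 CCAAT box and no CHR letters, and Ndc80 a CHR match and no CCAAT box. Birc5, Mad2l1, Nuf2 and Nusap1 hold neither. A match is a run of letters in a window and was not tested as a binding site.

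The deposited values are normalised per gene length and library, in the form of TPM, so levels can be set side by side between genes. Members were abundant. Their mean levels over 20 libraries ran from 19.8 for Cenpf, a kinetochore protein, to 382 for Birc5, the survivin subunit of the chromosomal passenger complex. The median member stood at 91.9, against 22.8 for all tested entries, and the lowest value of any member in any library was 15.4. No member was therefore near the minimum of 1, and none passed it through 1 group alone. Members also varied little. The ratio of the highest to the lowest library ran from 1.23 for Ttk to 2.06 for Kif23, with a median of 1.44, and the median over the 5929 tested genes with a mean of at least 19 was 1.44 as well.

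Markers of the labelled cell type were checked against the sort, which kept live, lineage-negative, c-Kit-high, CD105-positive cells without Sca-1, CD41, CD16/32 or CD150. Of the 6 genes that mark the sorted cells, Gata1 ran from 172 to 247, Klf1 from 289 to 404 and Epor from 126 to 165. Eng, the gene of CD105, ran from 84.0 to 125, Kit from 40.9 to 155 and Tfrc from 275 to 761. Mean Kit levels fell from 108 to 60.6 with PHZ in Mx1-Cre and from 87.7 to 51.9 in P95H. Mean Tfrc levels went the other way, from 366 to 682 in Mx1-Cre and from 421 to 697 in P95H. Genes of the excluded markers were low, with Fcgr3 at most 3.65, Itga2b at most 2.26, Fcgr2b at most 2.09, Ly6a at most 1.07 and Slamf1 at most 0.16. Granulocyte and monocyte transcripts were present all the same and differed between groups. The summed level of 16 such genes ran from 461 to 967 under PBS and 153 to 1092 after PHZ in Mx1-Cre mice, and from 571 to 2507 and 161 to 605 in P95H mice. S100a9, the highest of them, averaged 472 in the P95H libraries under PBS. Of 15 tested, 1 was lower after PHZ in Mx1-Cre and 15 in P95H, with none higher. Among all tested entries 14.9% and 17.7% were lower. In bulk samples such as these, fewer cells of a type and less RNA per cell cannot be told apart.

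PHZ against PBS asks how the progenitors change when the marrow must replace lost red cells. In Mx1-Cre mice 7 members rose and 2 fell after PHZ, and 26 did not pass the test. The 7 were Ccnb1, Ccna2, Plk1, Cdc20, Hmmr, Racgap1 and Kif20a, and those that fell were Ccnb2 and Ndc80. In P95H mice 10 members rose, none fell and 25 did not pass. They were Ccnb1, Plk1, Bub1, Cdc20, Cenpe, Hmmr, Kif23, Racgap1, Prc1 and Kif20a. All changes were small: the differences in log2(value + 1), the scale of every change given here, ran from -0.26 for Nusap1 to 0.33 for Cdc20 in Mx1-Cre and from -0.15 for Ccnb2 to 0.62 for Kif23 in P95H.

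The test was limma's moderated test over all 10890 entries with Benjamini-Hochberg adjustment, and a gene passed at an adjusted p under 0.05. Among all tested entries in Mx1-Cre, 31.9% passed, 17.0% as higher and 14.9% as lower. The members' 9 of 35 (25.7%) lay below that share. In P95H, 30.2% of all entries passed and 12.6% rose, against 28.6% of the members, all of them higher. The share of members that passed was thus near the background in both genotypes, and the count alone is no result about the members. The median member difference was 0.03 in Mx1-Cre, where the median over all entries was -0.00, and 0.10 in P95H, where it was -0.02. Positive differences were found for 21 members in Mx1-Cre and 28 in P95H. Because members vary together from library to library, these counts of signs are no result about the members either.

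The 2 PHZ comparisons set different libraries against each other. The spread of each gene was estimated over all 20 libraries, however, so the 2 sets of calls are not independent. Of the 13 members that passed in either genotype, 6 passed in both, each time as higher: Ccnb1, Plk1, Cdc20, Hmmr, Racgap1 and Kif20a. Another 3 passed in Mx1-Cre alone and 4 in P95H alone, and 22 passed in neither. How many of all entries passed in both was not computed, so the 6 are no result about the members as a set. No member's PHZ effect differed between the genotypes by the test of that difference, so a gene that passed in 1 genotype alone is not shown to respond differently.

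**Figure D1:**
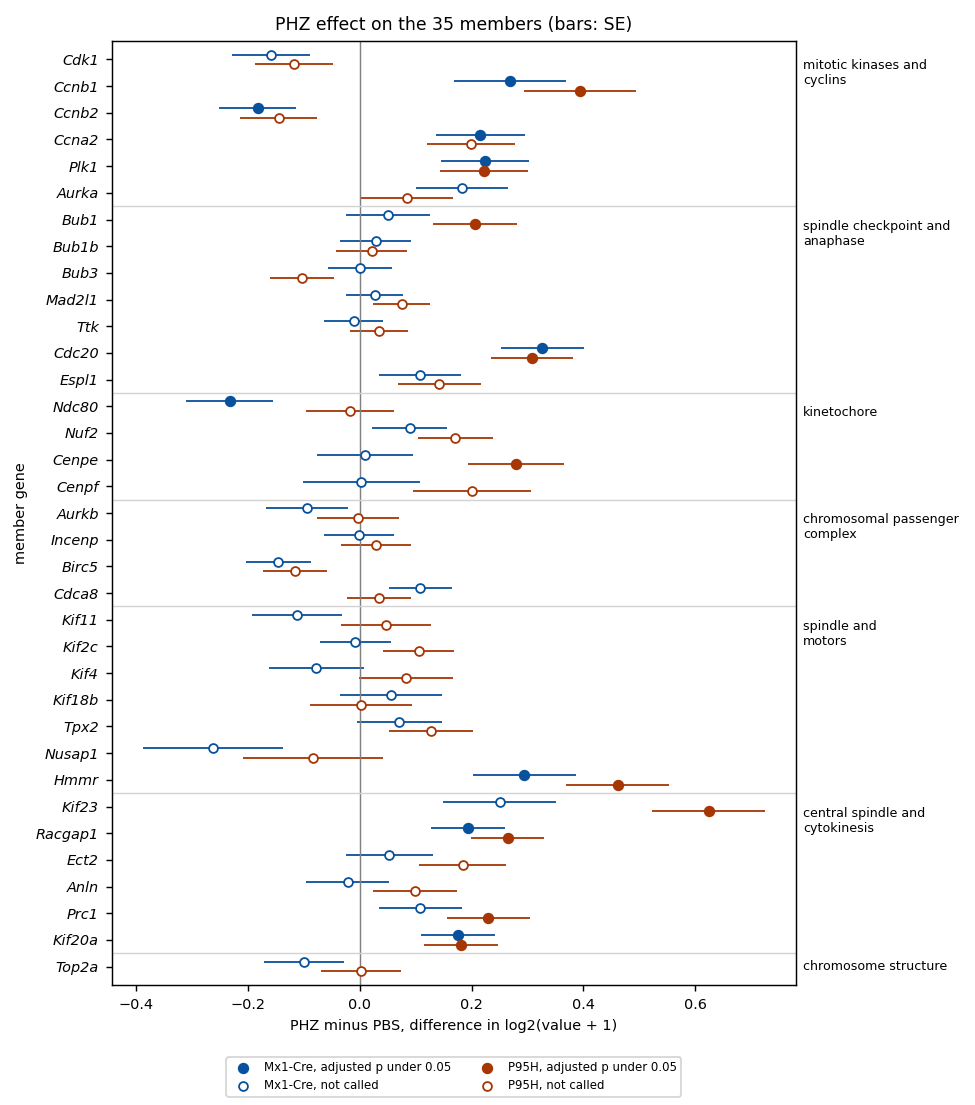
Difference in log2(value + 1) between PHZ and PBS libraries for each of the 35 members (vertical axis, grouped by role), in Mx1-Cre (blue) and P95H (brown) mice, with bars for the standard error. Filled points passed the test; Kif23 in P95H lies farthest to the right at 0.62, and 22 members are open in both genotypes.

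Among the 6 mitotic kinases and cyclins, 3 rose and 1 fell in Mx1-Cre, and 2 rose in P95H. Ccnb1 encodes cyclin B1, the activator of Cdk1 at mitotic entry. It read 181, 189.7, 194, 119 and 153 in the 5 Mx1-Cre PBS libraries and 218, 179.7, 199.8, 202 and 196 after PHZ. In P95H mice Ccnb1 read 143, 168, 173, 151 and 149 under PBS and 218, 199, 219, 184 and 212 after PHZ. The P95H groups did not overlap, whereas in Mx1-Cre 4 of 5 PHZ libraries lay above every PBS library. Its difference was 0.27 ± 0.1 (SE, limma adjusted p = 0.0449) in Mx1-Cre and 0.39 ± 0.1 (limma adjusted p = 0.00491) in P95H.

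Ccnb2, the gene of the sister cyclin B2, went the other way in the controls. Its Mx1-Cre values were 193, 203, 203, 175 and 186 under PBS and 165, 157, 172, 167 and 184 after PHZ, so that 4 PHZ libraries lay below every PBS library. The difference was -0.18 ± 0.0689 (limma adjusted p = 0.0474). P95H libraries gave 187, 197, 185, 194 and 196 under PBS and 188, 153, 176, 152 and 203 after PHZ, with wide overlap, and a difference of -0.15 ± 0.0689 (limma adjusted p = 0.116) that did not pass. The ratio of Ccnb1 to Ccnb2 within a library does not depend on the scaling between libraries and was chosen after its values were seen. In Mx1-Cre mice it ran from 0.680 to 0.953 under PBS and 1.06 to 1.32 after PHZ, and in P95H mice from 0.759 to 0.934 and 1.04 to 1.30. Every PHZ library of either genotype thus held more Ccnb1 than Ccnb2 signal per length, and every PBS library less. This ratio is given as a description, with no test.

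Ccna2 encodes cyclin A2, which acts in S phase and at mitotic entry. Mx1-Cre libraries read 267, 285, 299, 218 and 266 under PBS and 309.8, 294, 299.5, 333 and 306 after PHZ, and those of P95H 273, 291, 294, 246 and 284 and 363, 299.7, 319, 273 and 343. In each genotype 4 PHZ libraries exceeded every PBS library. The difference of 0.22 ± 0.0793 in Mx1-Cre passed (limma adjusted p = 0.0418), and that of 0.20 ± 0.0793 in P95H did not (limma adjusted p = 0.0618).

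Plk1, a kinase needed for spindle assembly and for cytokinesis, read 124, 132, 133, 89.8 and 113 in Mx1-Cre PBS and 138, 132, 142, 143 and 132 in Mx1-Cre PHZ libraries. Its P95H values were 118, 119, 114, 106 and 121 under PBS and 147, 133, 128, 131 and 137 after PHZ, with no overlap. In the controls the groups overlapped, and PBS replicate 4 was the lowest of all 20 libraries. Plk1 differed by 0.22 ± 0.0785 in Mx1-Cre (limma adjusted p = 0.0329) and 0.22 ± 0.0785 in P95H (limma adjusted p = 0.0359). Cdk1, the kinase that these cyclins activate, did not pass, at -0.16 ± 0.0694 and -0.12 ± 0.0694 (limma adjusted p = 0.0857 and 0.207), with mean levels of 221 ± 19.4 (SD, n = 5) under PBS and 198 ± 19.2 after PHZ in the controls. Aurka, the centrosomal Aurora kinase, did not pass either, at 0.18 and 0.08.

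Of the 7 genes of the spindle checkpoint and anaphase, 1 rose in Mx1-Cre and 2 in P95H. Cdc20 was the member whose rise was of like size in both genotypes and lasted under every alternative analysis. It encodes the activator through which the anaphase-promoting complex ends metaphase. Mx1-Cre libraries read 179.8, 165, 172, 128 and 159 under PBS and 210.0, 176, 209, 202 and 208 after PHZ. In P95H they read 161, 151, 161, 173 and 159 and 211, 203, 202, 178 and 203. The P95H groups were apart, and in Mx1-Cre the PHZ replicate 2 alone fell within the PBS range. Cdc20 rose by 0.33 ± 0.0739 in Mx1-Cre (limma adjusted p = 0.00209) and 0.31 ± 0.0739 in P95H (limma adjusted p = 0.00313).

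Bub1, a checkpoint kinase of the kinetochore, passed in P95H and not in Mx1-Cre. Its P95H values were 54.9, 59.5, 56, 42.3 and 50.3 under PBS and 59.3, 56.6, 65.1, 58.8 and 62.8 after PHZ, and only 2 PHZ libraries exceeded every PBS library. In Mx1-Cre it read 59.6, 56.6, 59, 52.4 and 55.2 and 65.6, 60.4, 56.6, 58.8 and 52, with PHZ libraries on both sides of the PBS range. The differences were 0.21 ± 0.0753 in P95H (limma adjusted p = 0.0422) and 0.05 ± 0.0753 in Mx1-Cre (limma adjusted p = 0.651). Bub1b, Bub3, Mad2l1 and Ttk, which carry the checkpoint signal, did not pass in either genotype, with differences between -0.10 for Bub3 and 0.07 for Mad2l1, both in P95H. Espl1 encodes separase, the protease that opens cohesin at anaphase, and gave 0.11 and 0.14, neither of which passed.

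Among the 4 kinetochore genes, 1 fell in Mx1-Cre and another rose in P95H. Ndc80, part of the complex that binds microtubules, read 31.3, 32.7, 33.7, 36.8 and 30.4 in Mx1-Cre PBS and 30.5, 25.5, 24.3, 29.6 and 30.0 in Mx1-Cre PHZ, where 4 libraries lay below every PBS library. It fell by 0.23 ± 0.0783 (limma adjusted p = 0.027). P95H libraries read 28.8, 30.8, 29.6, 28.1 and 31.8 and 28.2, 25, 32.3, 28.6 and 34, fully overlapping, with a difference of -0.02. Its partner Nuf2 did not pass, at 0.09 in Mx1-Cre and 0.17 in P95H (limma adjusted p = 0.34 and 0.06).

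Cenpe, a motor that carries chromosomes to the spindle equator, read 32, 32, 28.3, 27.7 and 27.8 in P95H PBS and 34.6, 36.8, 38.9, 32.3 and 37.8 in P95H PHZ. Those groups did not overlap. Mx1-Cre libraries gave 37.8, 39.8, 36.2, 38.6 and 32.9 under PBS and 41.7, 43.5, 36.8, 36.9 and 28.9 after PHZ, where the 5 PHZ libraries spread beyond the PBS range at both ends. Cenpe differed by 0.28 ± 0.0857 in P95H (limma adjusted p = 0.0171) and 0.01 ± 0.0857 in Mx1-Cre (limma adjusted p = 0.952). Cenpf, the least abundant member, gave 0.00 and 0.20, and neither passed.

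None of the 4 subunits of the chromosomal passenger complex (Aurkb, Incenp, Birc5, Cdca8), which corrects faulty attachments and later marks the cleavage site, passed in either genotype. Birc5 came nearest, with mean levels of 403 ± 12.2 (SD, n = 5) in the controls under PBS and 364 ± 25.6 after PHZ, a difference of -0.15 ± 0.0578 (limma adjusted p = 0.058). The 4 differences in Mx1-Cre lay between -0.15 and 0.11, the last for Cdca8. Top2a, which untangles chromosomes, did not pass, at -0.10 and 0.00.

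Of the 7 spindle and motor genes, Hmmr alone passed, in both genotypes. It encodes a spindle protein, also known as a hyaluronan receptor, that acts with Tpx2 in spindle assembly, and lies at chr11:40701395-40733422 (GRCm38). Mx1-Cre libraries read 78.7, 75.7, 76.7, 59.9 and 60.3 under PBS and 92.1, 93.9, 88.2, 87.3 and 69.8 after PHZ. P95H libraries read 62.3, 70.8, 66.3, 52.9 and 56.4 and 86.7, 85.5, 86.9, 77.8 and 88.1. The P95H groups were fully apart, and the Mx1-Cre groups were apart but for PHZ replicate 5. Hmmr rose by 0.29 ± 0.092 in Mx1-Cre (limma adjusted p = 0.0183) and 0.46 ± 0.092 in P95H (limma adjusted p = 0.000689). The motors Kif11, Kif2c, Kif4 and Kif18b and the spindle proteins Tpx2 and Nusap1 did not pass, with differences between -0.26 for Nusap1 in Mx1-Cre and 0.13 for Tpx2 in P95H. Nusap1 was widely spread in P95H PHZ, from 53.5 to 97.1.

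In the role of the central spindle and cytokinesis, with 6 genes, 4 rose in P95H and 2 in Mx1-Cre. Among all entries 12.6% rose in P95H and 17.0% in Mx1-Cre. All of these members' calls ended with the granulocyte covariate described below. Those of Prc1 and Kif20a, and that of Racgap1 in Mx1-Cre, also ended when certain single libraries were left out. Kif23 and Racgap1 encode the motor and the GTPase-activating subunit of centralspindlin, which bundles midzone microtubules and places the furrow. Kif23 (chr9:61915905-61946774, GRCm38) had the largest change of any member. Its P95H values were 29.4, 31.6, 25.6, 23 and 24.6 under PBS and 44.5, 46.2, 40.7, 34.8 and 43.1 after PHZ, which did not overlap. In Mx1-Cre it read 35.9, 40.5, 40.6, 29.4 and 29.1 under PBS and 47.3, 40.6, 40.0, 40.9 and 39.2 after PHZ, with PBS replicates 2 and 3 inside the PHZ range. The differences were 0.62 ± 0.101 in P95H (limma adjusted p = 8.8e-05) and 0.25 ± 0.101 in Mx1-Cre (limma adjusted p = 0.0634), the last of which did not pass. Mean Kif23 levels after PHZ were 41.6 ± 3.25 in Mx1-Cre and 41.9 ± 4.43 in P95H (SD, n = 5), and under PBS 35.1 ± 5.64 and 26.9 ± 3.55. The genotype means lay closer after PHZ than under PBS, a difference that did not pass the interaction test given below.

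Racgap1 read 67.7, 69.7, 70.1, 52.1 and 62.9 in Mx1-Cre PBS and 74.4, 69, 75.9, 74.1 and 74.3 in Mx1-Cre PHZ. Its P95H values were 56.4, 60.3, 60.0, 59.4 and 53.9 under PBS and 74.2, 64.5, 70.6, 67.9 and 72.3 after PHZ. The P95H groups were apart, and in Mx1-Cre 4 PHZ libraries lay above every PBS library. Racgap1 rose by 0.19 ± 0.0661 in Mx1-Cre (limma adjusted p = 0.029) and 0.26 ± 0.0661 in P95H (limma adjusted p = 0.0043).

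Kif20a, a kinesin of the central spindle that brings the passenger complex and Plk1 there, read 97.1, 94.4, 93.5, 73 and 82.7 and 104, 92, 99.4, 102 and 98.9 in Mx1-Cre PBS and PHZ, and 79.9, 83.2, 88.9, 82.3 and 88 and 102, 95.1, 97.4, 87 and 98.3 in P95H. In each genotype 4 PHZ libraries lay above every PBS library. It rose by 0.18 ± 0.0659 (limma adjusted p = 0.0466) and 0.18 ± 0.0659 (limma adjusted p = 0.0418). Prc1, the crosslinker of antiparallel midzone microtubules, rose in P95H, from 109, 117, 114, 103 and 115 to 143, 124, 137, 116 and 137, where 4 PHZ libraries exceeded the PBS range. In Mx1-Cre it read 118, 127, 136, 99.1 and 110.4 under PBS and 141, 124, 124, 128 and 118 after PHZ, largely overlapping. Prc1 differed by 0.23 ± 0.0744 in P95H (limma adjusted p = 0.0233) and 0.11 ± 0.0744 in Mx1-Cre (limma adjusted p = 0.289). Ect2, the exchange factor that activates RhoA at the furrow, and Anln, which links the contractile ring to the membrane, did not pass, at 0.18 and 0.10 in P95H.

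**Figure D2:**
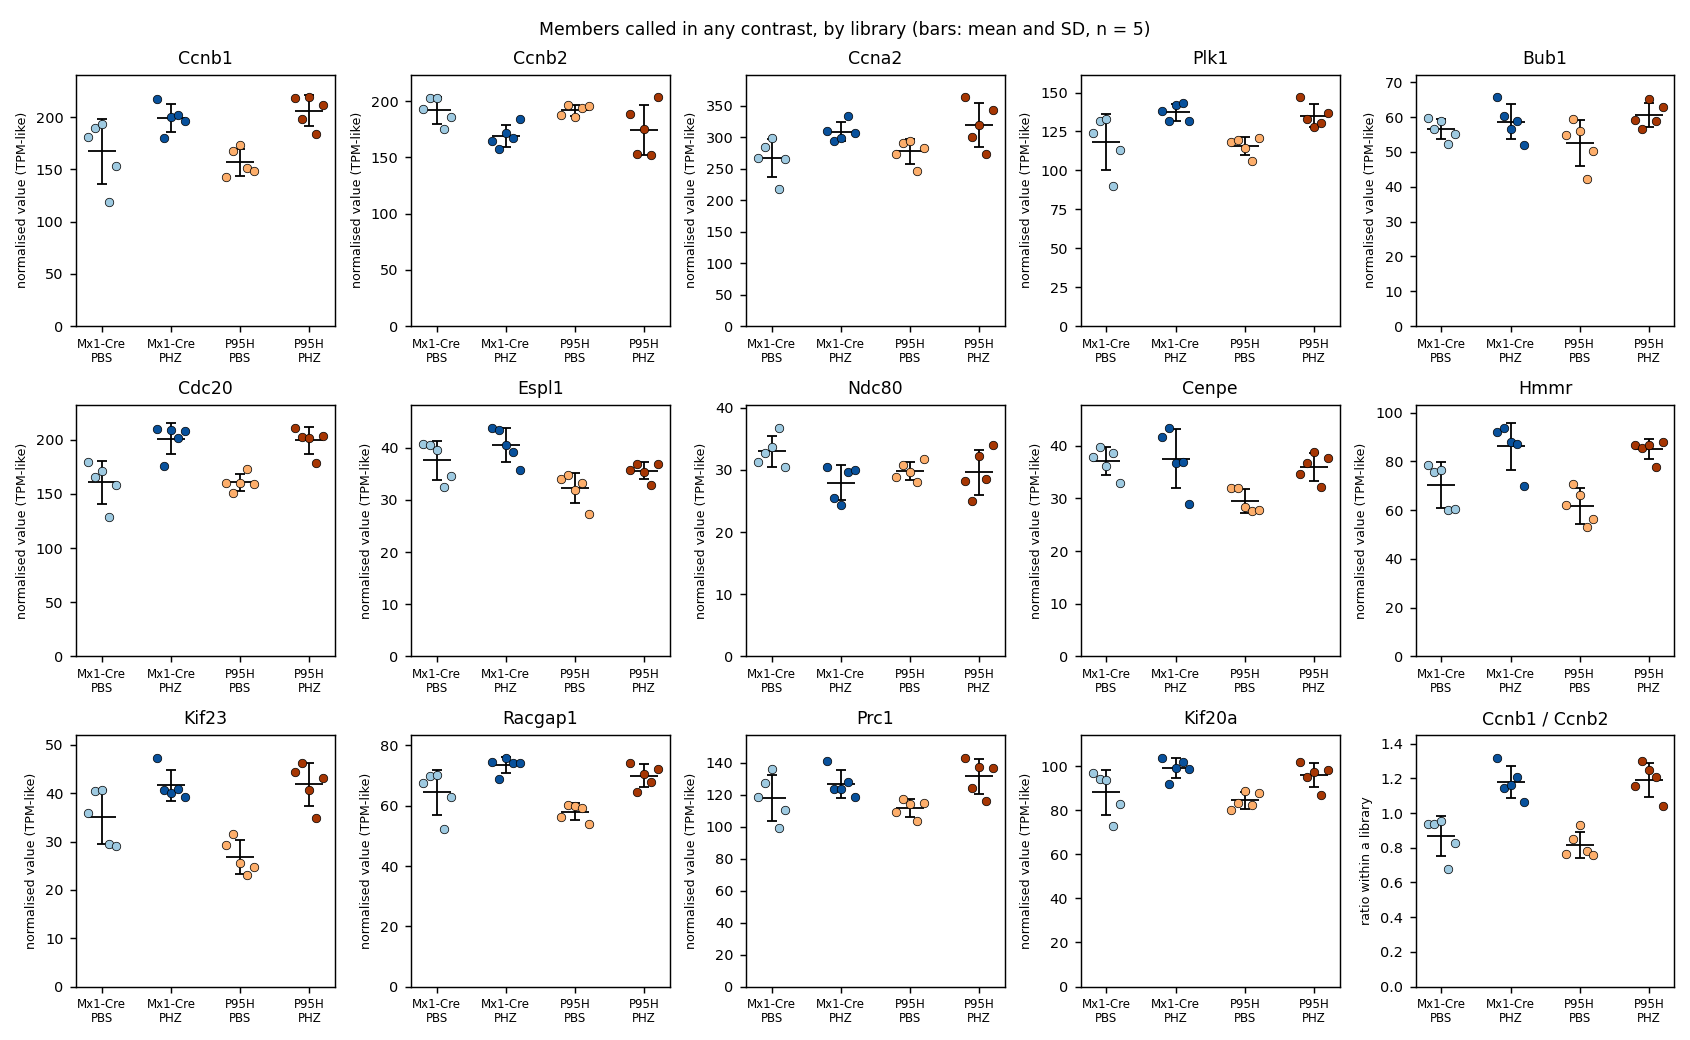
Normalised, TPM-like value (vertical axes, from 0) of the 14 members that passed in any comparison, and the ratio of Ccnb1 to Ccnb2, in each library of the 4 groups. Bars show mean and SD (n = 5); the ratio lies below 1 in every PBS library, at 0.953 or less, and above 1 in every PHZ library, at 1.04 or more.

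Taken by overlap, 7 members had every P95H PHZ library above every P95H PBS library (Ccnb1, Plk1, Cdc20, Cenpe, Hmmr, Kif23 and Racgap1), as did 7.59% of all tested entries. In Mx1-Cre no member's groups were free of overlap, against 22.4% of all entries. The SD among PBS libraries was larger in Mx1-Cre than in P95H for 31 of the 35 members, with medians of 9.82 and 4.86, and smaller for Bub1, Birc5, Anln and Bub3. The share over all entries was not computed, and members varied together from library to library, so this count is no result about the members.

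The calls in Mx1-Cre rested on few libraries and on the scaling. The split of 7 higher and 2 lower became 4 and 4 with TMM factors, 1 and 4 with quantile normalization and 8 and 0 with every library scaled to the same sum. The count of 9 fell to 3 without Mx1-Cre PBS replicate 4, 2 without PBS replicate 5, 5 without PHZ replicate 1, 2 without PHZ replicate 3 and 3 without PHZ replicate 4. Cdc20 passed whichever library was left out. Hmmr lost its call without PBS replicate 4 (adjusted p = 0.0649) or PBS replicate 5 (0.0543). The numbers of libraries whose removal ended a call, with the highest adjusted p, were 4 for Ndc80 (0.0917), 5 for Plk1 (0.103), 5 for Racgap1 (0.0975) and 7 for Ccna2 (0.152). For Ccnb1, Kif20a and Ccnb2 they were 10 (0.154), 12 (0.166) and 14 (0.116). Some of these were P95H libraries, which are outside the comparison. Their removal left the 3 differences unchanged, with an adjusted p of 0.0552 at most. Leaving out Mx1-Cre PBS replicate 4 also lowered the differences by more than 1.5 times, to 0.15 for Ccnb1, 0.13 for Plk1, 0.12 for Racgap1 and 0.11 for Kif20a. Library weights gave 0.16 for Ccnb1 and 0.13 for Racgap1, and quantile normalization 0.11 for Kif20a.

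In P95H the calls for Ccnb1, Cdc20, Cenpe, Hmmr, Kif23 and Racgap1 outlasted the removal of any library. The count of 10 fell to 6 without P95H PBS replicate 4 and to 6 without P95H PHZ replicate 1. Removal ended the call for 3 libraries with Prc1 (adjusted p up to 0.0637), 5 with Plk1 (0.0957), 7 with Bub1 (0.141) and 7 with Kif20a (0.0948). For Bub1 these included Mx1-Cre PHZ replicate 4, outside the comparison, whose removal left the difference unchanged (limma adjusted p = 0.0505). Under TMM, quantile and equal-sum scaling 12, 13 and 17 members passed in P95H, none of them as lower. The shares of all entries under these scalings are not given here for either genotype, so these counts are no result about the members. The Bub1 difference dropped to 0.13 without P95H PBS replicate 4. With equal-sum scaling it was 0.31, and that of Kif20a 0.29.

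Granulocyte transcripts moved with these results. In Mx1-Cre mice their mean log2 level was 3.93 ± 0.39 (SD, n = 5) under PBS and 3.02 ± 0.88 after PHZ, and in P95H mice it was 4.81 ± 0.81 and 3.07 ± 0.56. With that level as a covariate, Cdc20 was the sole member to pass in either genotype, and in P95H the differences became 0.37 for Kif23 (limma adjusted p = 0.0628), 0.24 for Racgap1 (0.121), 0.18 for Hmmr (0.291) and 0.04 for Cenpe (0.865). They were 0.03 for Bub1 (0.907), 0.13 for Plk1 (0.513), 0.15 for Prc1 (0.423), 0.18 for Kif20a (0.274) and 0.31 for Ccnb1 (0.195). In Mx1-Cre, Hmmr became 0.15 (limma adjusted p = 0.196), Ccnb2 -0.12 (0.257), Ndc80 -0.17 (0.161), Plk1 0.18 (0.154) and Ccnb1 0.22 (0.168). Ccna2 at 0.22 (0.0934), Kif20a at 0.17 (0.106) and Racgap1 at 0.18 (0.0904) stayed near their main differences and did not pass. The covariate itself differs between the treatment groups, most of all in P95H, so its effect and that of PHZ are hard to separate. The share of all entries that passed with this covariate is not given here, so the count of members is no result about them. Without P95H PBS replicates 4 and 5, where the markers were highest, 5 members passed in P95H. The 5 that did not pass there were Bub1, whose difference dropped to 0.09 (adjusted p = 0.400), Cenpe (0.22, 0.133), Plk1 (0.20, 0.139), Prc1 (0.21, 0.112) and Kif20a (0.19, 0.103).

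Other marker lists moved with PHZ as well. Of 4 early progenitor genes tested, Myb and Gata2 fell in both genotypes: mean Myb levels went from 198 to 123 in Mx1-Cre and from 170.3 to 102 in P95H, and those of Gata2 from 15.97 to 8.34 and from 14.4 to 7.88. Hoxa9 rose in P95H. Both lymphoid genes tested, Cd79a and Ighm, fell in each genotype. The summed level of the 6 lymphoid genes listed ran from 3.75 to 8.09 under PBS and 0.723 to 1.43 after PHZ in Mx1-Cre, and from 4.81 to 22.4 and 0.557 to 1.32 in P95H. Of 2 megakaryocyte genes tested, Gp9 fell in each genotype. Of 12 erythroid maturation genes, 2 fell in Mx1-Cre and 1 in P95H. The part of these cells or stages in the members' changes was not tested.

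**Figure D3:**
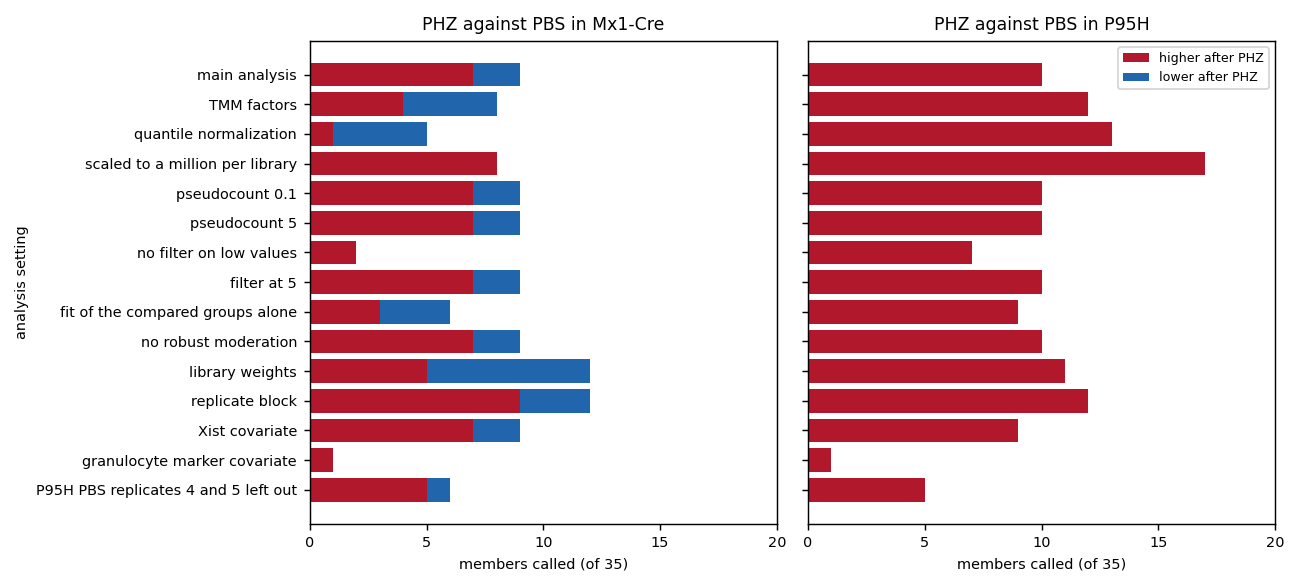
Number of the 35 members that passed for PHZ against PBS (horizontal axes) in each genotype, under the main analysis and 14 alternatives (vertical axis). Red bars are rises and blue bars falls; counts reach from 1 with the granulocyte covariate to 12 in Mx1-Cre and 17 in P95H.

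P95H against Mx1-Cre asks what the Srsf2 mutation changes within a treatment. No member passed, either under PBS, where 1.48% of all entries passed, or after PHZ, where 5.47% did. At an unadjusted p under 0.05 in limma there were 8 of 35 members under PBS and 1 after PHZ, all of them lower in P95H. Among all entries 14.1% did so under PBS, 9.83% as lower, and 21.5% after PHZ, 16.9% as lower. Under PBS 30 of the 35 members had negative differences, with a median of -0.08 against -0.03 for all entries. After PHZ the median was -0.01, against -0.05 for all entries, and 22 members were negative. Members vary together from library to library, and the shares of all entries with negative differences are not given here. These counts of signs are thus no result about the members.

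Under PBS the smallest p belonged to Cenpe, Kif23 and Espl1. Cenpe averaged 37.1 ± 2.67 (SD, n = 5) in Mx1-Cre and 29.6 ± 2.25 in P95H, a difference of -0.32 ± 0.0857 (limma adjusted p = 0.0687), and it was the member with every P95H library below every Mx1-Cre library. That held for 2.78% of all entries. The Kif23 difference was -0.37 ± 0.101 (limma adjusted p = 0.0712), with 3 P95H libraries below every Mx1-Cre library. The Espl1 difference was -0.21 ± 0.0735 (limma adjusted p = 0.166). Cenpe passed without Mx1-Cre PBS replicate 5 (limma adjusted p = 0.0442) or Mx1-Cre PHZ replicate 5 (0.0183), and Kif23 without Mx1-Cre PBS replicate 4 (0.0465), Mx1-Cre PBS replicate 5 (0.0352) or P95H PBS replicate 2 (0.0359). Mx1-Cre PHZ replicate 5 is outside this comparison, and without it the Cenpe difference stayed at -0.32. With other libraries left out the adjusted p of Cenpe and Kif23 reached 0.157 and 0.198. Cenpe also passed with library weights (limma adjusted p = 0.0149), a replicate block (0.0376) or the compared groups alone (0.0465). Kif23 did so with library weights (0.00573) or a replicate block (0.019), and Espl1 with library weights (0.013). With the granulocyte covariate the differences were -0.20 for Cenpe (limma adjusted p = 0.309), -0.24 for Kif23 (0.32) and -0.11 for Espl1 (0.558). Without P95H PBS replicates 4 and 5 they were -0.26 (limma adjusted p = 0.315), -0.26 (0.382) and -0.16 (0.494).

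After PHZ no member's genotype groups were free of overlap, against 6.95% of all entries. The smallest p belonged to Espl1 at -0.18 ± 0.0735 (limma adjusted p = 0.155), Cdca8 at -0.11 ± 0.0572 (0.257) and Bub3 at -0.07 ± 0.0575 (0.498). Bub3 turned to 0.0066 under quantile normalization.

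Averaged over both treatments, Espl1 was lower in P95H and was the only member to pass, where 10.5% of all entries passed and 7.88% were lower. Mx1-Cre libraries read 40.7, 40.6, 39.5, 32.5 and 34.7 under PBS and 43.8, 43.3, 40.5, 39.2 and 35.7 after PHZ. P95H libraries read 34, 34.7, 31.8, 33.3 and 27.4 under PBS and 35.8, 37, 35.4, 32.9 and 36.9 after PHZ. The genotypes overlapped under both treatments, with 2 P95H libraries below every Mx1-Cre library in each. The averaged difference was -0.20 ± 0.052 (limma adjusted p = 0.0174). It did not pass with TMM factors (adjusted p = 0.0709), quantile normalization (0.0795), equal-sum scaling (0.128), the granulocyte covariate (0.0527) or without P95H PBS replicates 4 and 5 (0.0536). Cenpe and Kif23 followed, at -0.18 ± 0.0606 and -0.18 ± 0.0715 (limma adjusted p = 0.0566 and 0.107). Both passed with library weights (limma adjusted p = 0.0165 and 0.0183) or a replicate block (0.0329 and 0.035). Under other settings their adjusted p reached 0.238 and 0.321.

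**Figure D4:**
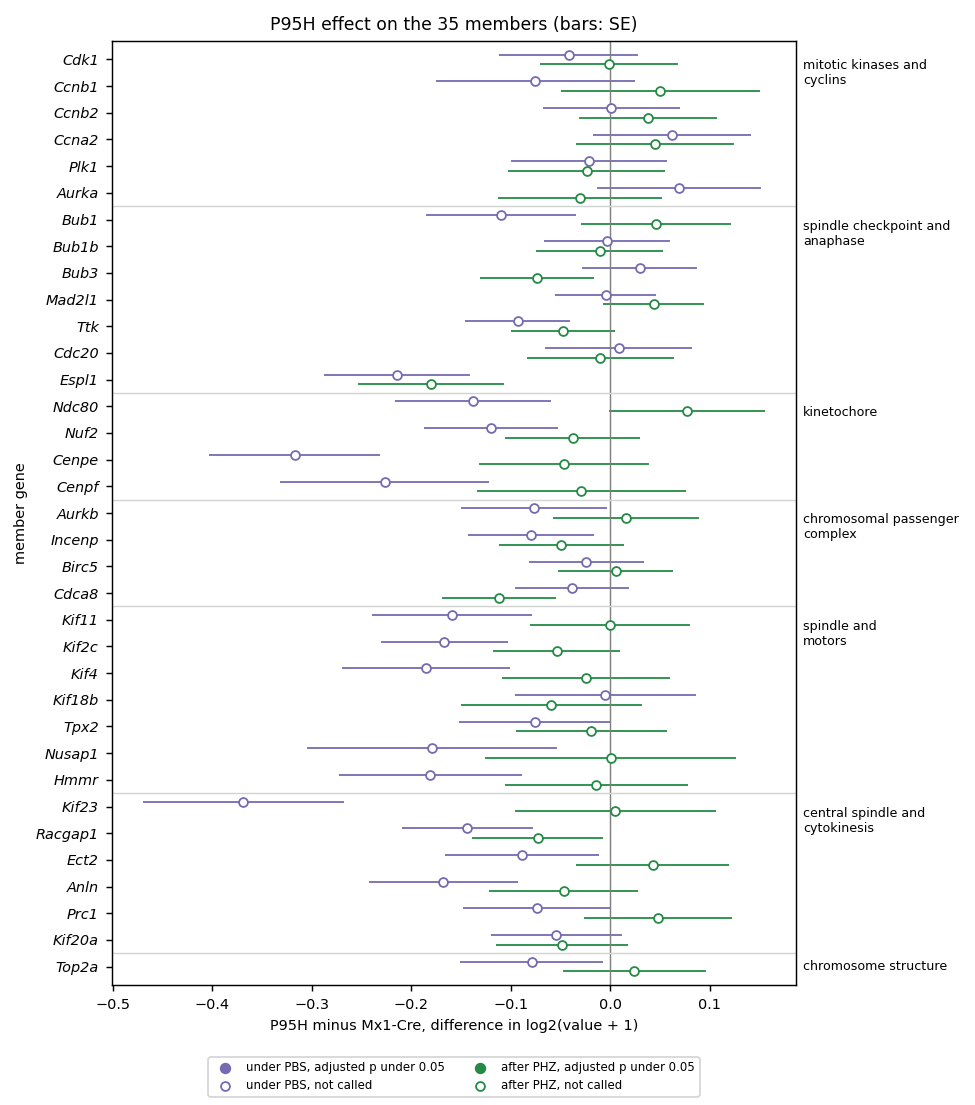
Difference in log2(value + 1) between P95H and Mx1-Cre libraries for each of the 35 members (vertical axis, grouped by role), under PBS (purple) and after PHZ (green), with bars for the standard error. All points are open because none passed; Kif23 at -0.37 and Cenpe at -0.32 under PBS lie farthest to the left.

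The difference between the genotypes in the PHZ effect was tested as an interaction. No entry of the table passed with limma (0.00%), and 577 entries (5.30%), 2 of them members, had an unadjusted p under 0.05. The members with the smallest p were Kif23, whose effect was larger in P95H by 0.37 ± 0.143 (unadjusted p = 0.0162, limma adjusted p = 0.798), Cenpe by 0.27 ± 0.121 (unadjusted p = 0.0364 in limma) and Ndc80 by 0.22 ± 0.111 (unadjusted p = 0.0648 in limma). The PHZ effect was more positive in P95H for 27 of the 35 members, with a median difference of 0.07 against -0.03 for all entries. This difference is made up of the same P95H PBS libraries in which members were lower, so it is not a separate observation. As members vary together, the count of 27 is no result about them.

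Other genes of mitosis, 135 in number and listed by function, moved as a mixed group. After PHZ 11 rose and 12 fell in Mx1-Cre, and 21 rose and 11 fell in P95H, with medians of -0.02 and 0.01. Among all tested entries 17.0% rose and 14.9% fell in Mx1-Cre, and 12.6% rose and 17.7% fell in P95H. Cdc25a, a phosphatase that activates cyclin-dependent kinases, rose by 0.40 ± 0.0777 in Mx1-Cre (limma adjusted p = 0.000533), as did Anapc1, the scaffold of the anaphase-promoting complex, by 0.32 ± 0.067, and the septin Sept9 by 0.55 ± 0.143. Hjurp and Mis18a, which load the centromeric histone CENP-A, changed by -0.40 ± 0.0779 and -0.37 ± 0.0649, and Pttg1, the separase inhibitor securin, by -0.32 ± 0.095. In P95H the largest rises were Cdc25b at 0.67 ± 0.225, Sept9 at 0.49 ± 0.143 and the kinetochore scaffold Knl1 at 0.46 ± 0.152, and the largest falls Mis18a at -0.51 ± 0.0649, Anapc13 at -0.45 ± 0.0948 and Hjurp at -0.38 ± 0.0779. Between genotypes, Cenpj (-0.32 ± 0.0789), needed for centriole growth, and the centromere gene Cenpu (-0.23 ± 0.0561) were lower in P95H under PBS. Anapc11 (-0.28 ± 0.0679), Mad1l1 (-0.24 ± 0.0643), which anchors Mad2, and Cenpo (-0.21 ± 0.054) were lower after PHZ. Averaged over treatments 1 was higher, Cdc16 at 0.17 ± 0.0366, and 8 were lower, led by Cenpj at -0.28 ± 0.0558, Mad1l1 at -0.19 ± 0.0455 and Cenpu at -0.18 ± 0.0397. Among all entries 2.66% were higher and 7.88% lower in that contrast.

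Of 55 DNA replication genes, 5 rose and 9 fell after PHZ in Mx1-Cre, and 6 rose and 10 fell in P95H, with medians of -0.04 and -0.05. The shares of all entries were 17.0% and 14.9% in Mx1-Cre and 12.6% and 17.7% in P95H. Ccne1 (0.36 ± 0.105), Rrm2 (0.31 ± 0.0957) and Orc2 (0.30 ± 0.0601) rose most in Mx1-Cre, and Cdc7 (-0.26 ± 0.0713), Rpa3 (-0.26 ± 0.0806) and Tk1 (-0.25 ± 0.0892) fell most. In P95H, Rrm2 (0.25 ± 0.0957), Orc4 (0.23 ± 0.0865) and Orc3 (0.22 ± 0.0495) rose most, and Rpa3 (-0.24 ± 0.0806), Mcm7 (-0.21 ± 0.0587) and Rfc2 (-0.21 ± 0.0631) fell most. None differed between genotypes under PBS, after PHZ or averaged, at an adjusted p under 0.05 in limma. Among all entries 1.48%, 5.47% and 10.5% did so.

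Members varied together from library to library. After the mean of each group was taken out, the median Pearson correlation over the 595 pairs of members was 0.54 across the 20 libraries, and 95.5% of pairs were positive. For the 55 replication genes the median was 0.46, and for pairs of the 5929 tested genes with a mean of at least 19 it was 0.05. The values of a library share its scaling and its cell mix, so these correlations are a description. Kif11 and Top2a ran closest (r = 0.95), followed by Bub1b with Tpx2 (0.92) and Ccnb1 with Kif20a (0.91). Prc1 followed the mean of the other members best (r = 0.94), and Ndc80 least (0.25), and the lowest pair was Espl1 with Ndc80 (-0.28).

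Seen by library, Mx1-Cre PBS replicate 4 stood lowest among its group, with members on average 0.16 below their overall mean and 7 of 35 above it. Mx1-Cre PBS replicate 5 lay 0.09 below, while the other 3 libraries of the group lay 0.07 to 0.13 above. P95H PBS replicate 4 lay 0.16 below with 4 members above their mean, and P95H PBS replicate 5 lay 0.10 below. Mx1-Cre PHZ replicate 1 was highest, at 0.16 above with 34 members above. In these PBS groups the libraries with the lowest members held the most granulocyte signal: the mean log2 marker level was 4.25 and 4.45 in Mx1-Cre PBS replicates 4 and 5, against 3.59 to 3.70 in the other 3. It was 5.51 and 5.61 in P95H PBS replicates 4 and 5, against 3.75 to 4.96 in the others. After PHZ the order was not the same. In P95H PHZ, replicates 1, 3 and 5 had both the higher members, 0.11, 0.06 and 0.13 above their mean, and the higher marker levels, 3.29, 3.32 and 3.74. Replicates 2 and 4 of that group lay 0.04 and 0.10 below, with marker levels of 2.34 and 2.69. In Mx1-Cre PHZ, replicate 1 with the highest members had the lowest marker level, 2.19, and replicate 5 had the highest, 4.41, with members 0.01 above their mean. Their part in the spread of members within a group was not tested.

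**Figure D5:**
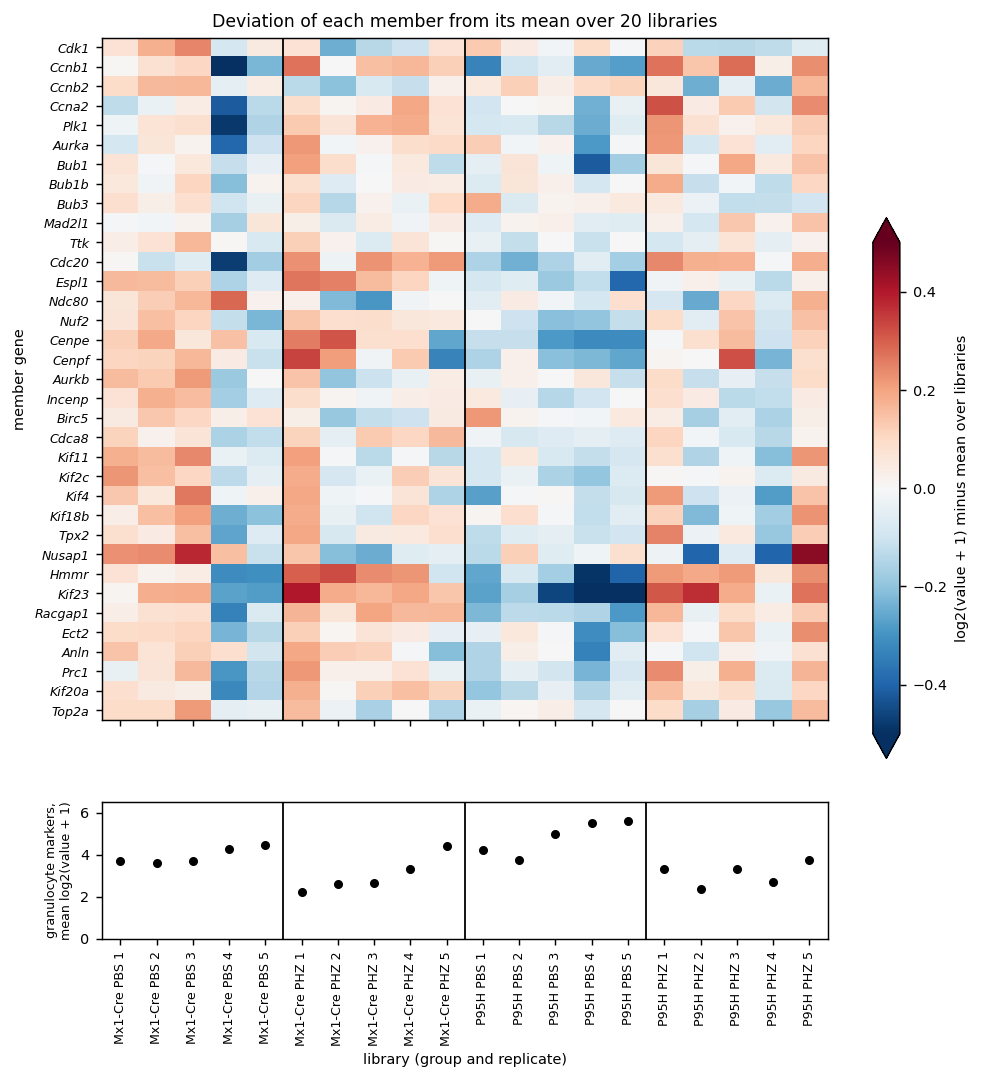
Deviation of each member's log2(value + 1) from its mean over 20 libraries (colour, clipped at 0.5 either way; rows are members, columns are libraries by group), above the mean log2 level of the granulocyte markers in the same libraries. The columns of Mx1-Cre PBS 4 and P95H PBS 4 are mostly blue, with averages of -0.16, and that of Mx1-Cre PHZ 1 mostly red, at 0.16.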

How the data were processed

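RNA of sorted CFU-E was sequenced as 150 bp paired-end reads to a minimum of 100000000 reads per library, per the labels' protocols. The authors deposited a normalised signal for every gene and library in 1 table. Per the submitters' processing notes RSEM 1.2.4, Bowtie, TopHat2 2.0.8b and TopHat were used, with the builds GRCm38, mm10, GRCh37 and hg19, of no stated role or order. In each library every value was a whole multiple of 0.01 times 1 factor (0.940 to 1.10), within a tolerance of 0.01 of a step, so the signal has the form of scaled TPM. The sources used here do not give how the factors were made, and the reads behind a value are not given, so no interval from depth was computed. Symbols and positions came from GENCODE vM21 (GRCm38) and promoter windows from RefSeq.

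limma 3.58.1 (R 4.3.3, trend and robust moderation) was fitted to log2(value + 1) with 4 group means over all 20 libraries, for entries that reached 1 in 5 or more libraries. A fold change on this scale understates low genes. P-values of the 6 contrasts were two-sided and adjusted by Benjamini-Hochberg over 10890 entries, with a threshold of 0.05. The fit was tested on simulated data. TMM factors (trimmed mean of log ratios) were computed in R, and tables and figures from Python 3.11.15, pandas 2.3.3, numpy 2.4.6 and matplotlib 3.10.9. All 35 members are accounted for, and those that passed in any contrast are given by library. Where fewer than 3 passed, the members with the 3 smallest p are given with their differences. Up to 3 genes per direction are given for the other lists. The members, lists and alternatives were chosen with earlier results of these data known. Alternatives were other scalings, pseudocounts of 0.1 and 5, no filter or a filter at 5, the compared groups alone, no robust moderation, library weights, a replicate block, Xist or granulocyte markers as covariates, and libraries left out.

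Marker lists checked beside CFU-E and granulocyte genes summed, over all 20 libraries, to between 1.97e+03 and 5.77e+03 for 12 erythroid maturation genes, 113 and 286 for 8 early progenitor genes, 6.72 and 16.6 for 6 megakaryocyte genes, 0.557 and 22.4 for 6 lymphoid genes, 0.24 and 1.95 for 4 basophil and mast cell genes and 1.23 and 3.67 for 5 macrophage genes.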

Additional observations from a re-analysis of the deposited data

Results flagged for a closer look

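Among the 14 members that passed in any comparison, 56 groups of 5 libraries were examined, and in 6 of them a library stood apart, its gap to the nearest other exceeding 0.71 of the group's range. Chance alone marks about 1 in 20 groups. Cdc20 was low in Mx1-Cre PHZ replicate 2, at 175.85 against 202.12 or more in the others, and in P95H PHZ replicate 4, at 178.18 against 202.15 or more. Hmmr was low in Mx1-Cre PHZ replicate 5, at 69.76 against 87.325 or more, and in P95H PHZ replicate 4, at 77.836 against 85.459 or more. Racgap1 was low in Mx1-Cre PHZ replicate 2, at 68.974 against 74.067 or more. Kif23 was high in Mx1-Cre PHZ replicate 1, at 47.326 against 40.879 or less.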

How the results depend on the processing

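For PHZ in Mx1-Cre the count of 9 members moved to 5 with quantile normalization, 2 with no filter on low values and 1 with the granulocyte covariate, and ran from 2 to 10 when each library was left out. For PHZ in P95H the count of 10 moved to 17 with equal-sum scaling, 1 with the granulocyte covariate and 5 without P95H PBS replicates 4 and 5, and ran from 6 to 11 with each library left out. For P95H under PBS the count of 0 became 1 when the compared groups were fitted alone and 5 with library weights, and 0 to 2 with a library left out. Averaged over treatments the count of 1 became 0 with TMM, quantile or equal-sum scaling, with the granulocyte covariate and without P95H PBS replicates 4 and 5, 5 with library weights, and 1 to 3 with a library left out. After PHZ, and for the interaction, the count was 0 under every alternative and every library left out. With the replicate number as a block the counts were 12 and 12 for PHZ in Mx1-Cre and P95H, 2 for P95H under PBS and 3 averaged. Same-numbered libraries did not deviate together (correlations from -0.306 to 0.441, with 1 to 3 of 5 pairs above 0.1), so the numbers are not taken to pair the samples. The sign of Bub3 after PHZ turned under quantile normalization, to 0.0066. The cause of these shifts was not tested, apart from the fewer libraries or greater number of genes that an alternative holds by construction. The shares of all entries under these alternatives are not given here, so the shifts in count are no result about the members. Without read counts, the precision of a single value cannot be set by depth.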
